A study of Mus musculus with 4 samples.

Results

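The effect of losing HMGB1 under interleukin-4 (IL-4) was read from 2 of the 4 arrays of the series, one of KO and one of WT keratinocytes, both given 100 ng/ml of recombinant IL-4 for 12 h. The KO and WT arrays of untreated cultures served as the only other pair. All cells were primary keratinocytes of male mice grown in EpiLife medium. The KO is labelled HMGB1 KO and its mice are named K5-HMGB1 in the design text; the sources used here do not give how the allele was made, which cells carry it, the age of the animals or how many animals each culture came from. Each of the 4 groups (KO with IL-4, WT with IL-4, KO untreated, WT untreated) had 1 Affymetrix Clariom S Mouse array, so no value has a replicate error and every difference is given as a size. The number of arrays limits the precision, and in bulk RNA fewer cells of a type and less RNA per cell cannot be told apart.

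HMGB1 is an abundant non-histone chromatin protein that bends DNA and loosens its packing in the nucleus. Released from stressed or dying cells it acts as an alarmin through receptors such as RAGE and the Toll-like receptors. Keratinocytes form the epidermis: basal cells divide, and cells that leave the basal layer stop dividing and build the cornified envelope. IL-4 is a cytokine of type 2 immunity, prominent in atopic skin, that signals through STAT6 and dampens epidermal differentiation.

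The targeted gene came first. Hmgb1 (cluster TC0500003648.mm.2, chr5:149046702-149053057 on GRCm38) read 7.60 on the log2 scale in KO and 14.17 in WT with IL-4, and of 7.97 in KO and 14.71 in WT untreated. Both KO values lay far under both WT values. The difference was -6.57 with IL-4, or 94.7-fold, and -6.74 untreated. It was the largest fall of any named cluster in the IL-4 pair. The KO values were under 9.21, the 95th percentile of the array's negative control rows, so this size is uncertain, and the position of the probes within the mutant gene is unknown here.

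Of 22206 transcript clusters, 11456 had a highest value over the 4 arrays of at least 5.33, the median of the whole table, and were compared. A cluster is said to have risen or fallen when it was at least 2-fold (1 log2) higher or lower in KO. With IL-4, 185 clusters rose (percent of those compared: 1.61) and 442 fell (3.86), together 5.47 percent. Untreated, 154 rose (1.34) and 357 fell (3.12). The median difference with IL-4 was -0.02, and 52.3% of all clusters lay below 0, while 70.5% of those that passed 2-fold did. Most of these changes were close to the threshold: 11 clusters rose and 41 fell by at least 2 log2, and 6 rose and 11 fell by at least 3.

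**Figure D1:**
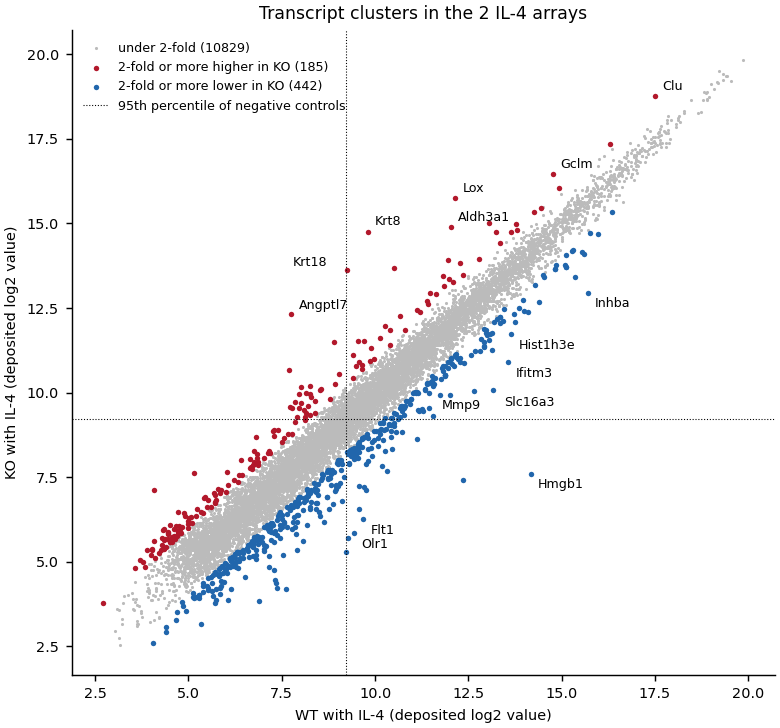
Log2 value of each of the 11456 compared clusters in the KO IL-4 array (y axis) against the WT IL-4 array (x axis); red points rose and blue points fell at least 2-fold in KO, and dotted lines mark 9.21. Hmgb1 is the blue point farthest from the diagonal, Krt8, Krt18 and Angptl7 lie farthest above it, and most coloured points with low values lie close to the grey band.

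The size of a difference has to be read against the level. The robust SD of the KO minus WT differences with IL-4 was 0.54 for clusters with a mean log2 value under 6 and 0.21 for those over 16. Among the 5222 negative control rows, which match no transcript, 25.1% differed at least 2-fold between the IL-4 arrays, 6.17% by at least 2 log2 and 2.22% by at least 3 log2, against 5.47%, 0.454% and 0.148% of the compared clusters. Of the 362 control rows that reached 9.21 in an IL-4 array, 33.4%, 16.9% and 11% passed these sizes, so a value above 9.21 does not by itself make a difference safe. A difference is called dim below when both IL-4 values lay under 9.21. Of the 185 clusters that rose, 48 had both values at or above 9.21, 27 had 1 and 110 were dim. Of the 442 that fell, 120 had both at or above it, 80 had 1 and 242 were dim.

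**Figure D2:**
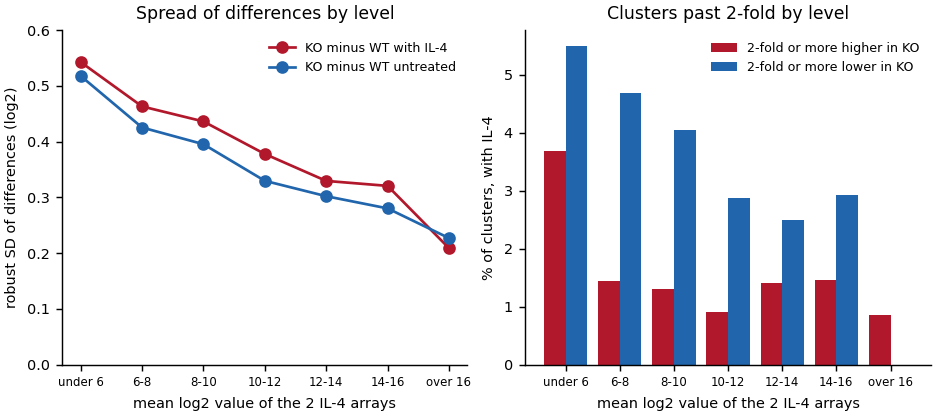
Left, the robust SD of KO minus WT log2 differences (y axis) in 7 bins of the mean log2 value of the IL-4 arrays (x axis), with IL-4 in red and untreated in blue. Right, the percent of clusters in each bin that rose (red) or fell (blue) at least 2-fold in KO with IL-4: the spread narrows with level, and falls outnumber rises in every bin but the highest.

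Gene symbols existed only for clusters listed in the authors' deposited tables of this comparison and of IL-4 against untreated WT, which gave 603 of the 627 changed clusters a single symbol, 180 that rose and 423 that fell. Only 2568 compared clusters had a single symbol, so changed clusters were much commoner among named clusters than among all. Each list count below has to be read against 423 falls and 180 rises in 2568 named clusters. A gene of a list below that is not counted was either under 2-fold in this comparison or has no cluster under that symbol. Members named only through the genotype table were by that fact already 2-fold apart, so a count of how many changed is a description, and the untreated pair, which shares no array with the IL-4 pair, is the only reading outside the choice. Members named only through the IL-4 response of WT share the WT IL-4 array with this comparison: of 1038 such clusters that were higher with IL-4 in WT, 61.7% lay below 0 here, with a median of -0.14, and of 928 that were lower, 50.1% did. They also share the WT untreated array with the untreated difference, where 74.4% of the 1038 and 20.8% of the 928 lay above 0.

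Genes of the replicating and dividing cell were among those that fell in KO with IL-4. The histone genes that are switched on in S phase to package new DNA formed a large family of changed clusters: 34 clusters with a replication-dependent histone symbol changed, 33 of them falling and 1 rising. The fall ranged between -1.93 and -1.02, with a median of -1.25 over all 34. The falling clusters were 8 of H2A, 8 of H2B, 8 of H3, 7 of H4 and 2 of H1. This family was grouped by symbol after the values were seen. Of the 34, 33 were named only through the genotype table, where an unchanged histone cluster could not appear. The counts and the median therefore cannot show what share of the histone genes changed.

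Hist1h3e, an H3 gene of the large histone cluster on chromosome 13, had 11.72 in KO and 13.65 in WT with IL-4, and 13.38 in KO and 13.17 in WT untreated. The KO IL-4 array alone was low, by -1.93 against WT, and the untreated difference was 0.22. Hist1h2bm, an H2B gene, had 9.45 in KO and 11.17 in WT with IL-4, against 11.47 in KO and 11.16 in WT untreated, and Hist1h2af, an H2A gene, had 12.50 in KO and 13.86 in WT with IL-4, against 14.23 in KO and 13.84 in WT untreated. Hist2h4, an H4 gene, had 8.86 in KO and 10.43 in WT with IL-4, and 11.47 in KO and 10.68 in WT untreated. One low array was the rule: in all 33 histone clusters that fell, the KO IL-4 array was the lowest of the 4, as it was in 70.4% of all clusters that fell. Untreated, all 33 lay above 0 in KO, by a median of 0.41 and a range of 0.01 to 0.79, where 39.8% of the 442 clusters that fell and 49.5% of all compared clusters lay above 0.

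Levels with IL-4 in the falling H2A clusters ranged between 9.08 and 14.23 in KO and between 10.37 and 15.29 in WT. Of the 33, 26 had both IL-4 values at or above 9.21. Only Hist4h4 and the linker histone gene Hist1h1a were dim. Histone genes are near copies of each other and probes can read several at once, so the members are not independent and no single one can be assigned its change; Hist2h3c1 and Hist2h3c2 had the same value in all 4 arrays. The linker histone Hist1h1c, whose transcript is made outside S phase as well, went the other way, with 9.82 in KO and 8.78 in WT with IL-4, and 9.59 in KO and 10.15 in WT untreated. H2afx, the variant that is phosphorylated at DNA breaks, fell by 1.44 with IL-4 and was 0.11 higher untreated, while the replacement H3 gene H3f3a was at 0.13. Of 43 clusters that fell on chromosome 13, 29 were histone clusters. They made up the excess of that chromosome: 8.67% of its clusters fell with the histones counted, and 3% without them, against 3.86% of all.

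The mitotic genes that fell were also lowest in the KO IL-4 array. Of 15 compared members of an 80-gene mitosis and cytokinesis list, 13 fell and none rose, with a median of -1.11, and all 13 were named only through the genotype table. Plk1, the polo kinase that drives mitotic entry and exit, had 10.39 in KO and 11.77 in WT with IL-4, and 12.01 in KO and 11.52 in WT untreated. Ube2c, the ubiquitin carrier of the anaphase-promoting complex, had 10.78 in KO and 11.88 in WT with IL-4, and 12.71 in KO and 11.83 in WT untreated. Ccnb2, a B-type cyclin, had 8.17 in KO and 9.49 in WT with IL-4, and 10.32 in KO and 9.79 in WT untreated. In each of these genes the KO IL-4 culture was the lowest and the untreated KO culture the highest. Of the 13 that fell, 9 were highest in untreated KO and 4 in WT with IL-4.

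Cdk1, the kinase that B-type cyclins activate, had 7.30 in KO and 8.47 in WT with IL-4, a dim fall of -1.17, and 9.16 in KO and 7.95 in WT untreated, a rise of 1.21. Its direction turned between the treatments. The other members that fell were Mybl2 (-1.40), a transcription factor of the cell cycle, Racgap1 (-1.39), Kif4 (-1.03) and Prc1 (-1.11), which build the central spindle, Tpx2 (-1.03), a spindle assembly factor, Top2a (-1.02), the topoisomerase that untangles sister DNA, Aspm (-1.19), Shcbp1 (-1.16) and Pbk (-1.02). Aspm, Shcbp1 and Prc1 were dim. For all 13 the KO IL-4 array was the lowest of the 4, and 12 of the 13 lay above 0 untreated, with a median of 0.49; Top2a was the exception at -0.15.

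Of 18 compared members of the DNA replication list 4 fell and none rose: E2f8, an atypical repressor of the E2F family, with 9.94 in KO and 11.74 in WT with IL-4 and 11.27 in KO and 11.35 in WT untreated, the helicase Blm (-1.11), the exonuclease Exo1 (-1.18) and E2f2 (-1.12), the last pair dim. The 14 others stayed under 2-fold, with 13 of them below 0 and a median of -0.47. They included the replicative helicase subunits Mcm2 (-0.58) and Mcm4 (-0.58) and the ribonucleotide reductase subunit Rrm2 (-0.49). These 14 were named through the IL-4 response of WT and the changed mitosis genes through the genotype table, so the counts of these 2 lists cannot be set against each other.

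**Figure D3:**
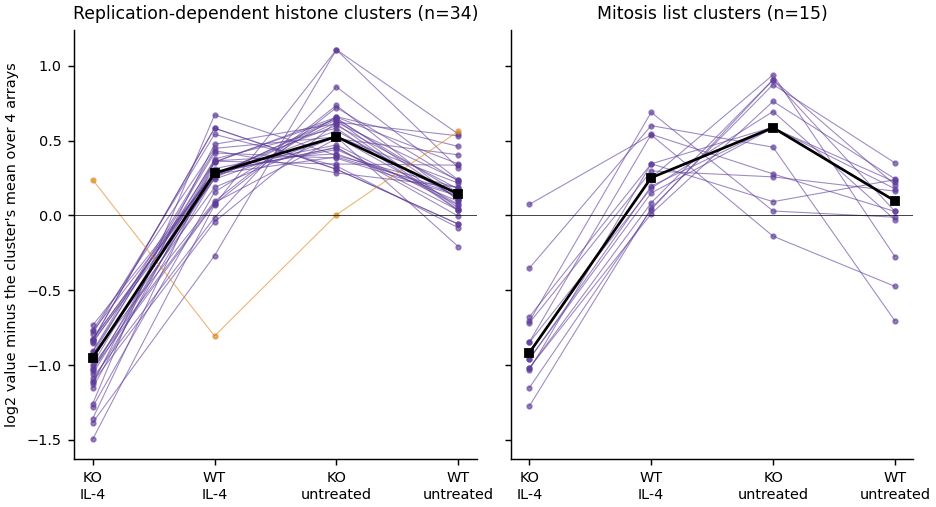
Log2 value minus the cluster's own mean over the 4 arrays (y axis) in each array (x axis) for 34 replication-dependent histone clusters (left) and 15 mitosis list clusters (right); each thin line is 1 cluster and black squares are medians. All but one of the left lines dip in the KO IL-4 array, the exception being Hist1h1c in orange, and the black medians are highest in untreated KO.

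Genes of mitosis are typically read from promoters that pair CCAAT boxes, bound by NF-Y, with a cell cycle homology region (CHR) bound by the DREAM and MuvB complexes, and histone promoters also carry CCAAT boxes. The RefSeq promoters (GRCm38.p6, 250 bases before to 50 after the start) were searched on both strands for CCAAT and for the CHR core TTTGAA. Of the 13 mitosis genes that fell, 10 had a promoter in the table, and 9 of the 10, all but Mybl2, held both motifs. Both motifs occurred together in 7.12% of 27025 promoters and in 51.5% of the 66 listed mitosis genes with a promoter, changed or not. Of the 33 falling histones 30 had a promoter, and 90% held CCAAT and 46.7% the CHR core, against 37.9% and 18.1% of all promoters and 87.5% and 34.4% of the 32 promoters of the histone list. A match is a string of letters and no proof of a site. The promoters of 4 mitotic and 2 histone genes are shown because they belong to the named members that fell, with both motifs capitalised in the mitotic genes and CCAAT alone in the histones (ATTGG and TTCAAA are the motifs read on the other strand).
Cdk1 promoter, chr10:69352863-69353162, minus strand: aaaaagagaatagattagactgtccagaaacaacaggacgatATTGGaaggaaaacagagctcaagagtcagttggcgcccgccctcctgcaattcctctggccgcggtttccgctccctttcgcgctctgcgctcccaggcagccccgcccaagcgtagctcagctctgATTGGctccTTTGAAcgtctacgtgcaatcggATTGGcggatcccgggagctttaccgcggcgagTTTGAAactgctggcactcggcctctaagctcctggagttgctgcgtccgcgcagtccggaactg
Ccnb2 promoter, chr9:70421505-70421804, minus strand: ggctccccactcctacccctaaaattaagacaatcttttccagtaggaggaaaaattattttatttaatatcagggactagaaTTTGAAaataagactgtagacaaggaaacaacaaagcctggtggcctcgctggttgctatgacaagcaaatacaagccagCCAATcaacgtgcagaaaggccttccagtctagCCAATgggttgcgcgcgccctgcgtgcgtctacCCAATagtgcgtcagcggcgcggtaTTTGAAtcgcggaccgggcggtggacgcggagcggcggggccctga
Plk1 promoter, chr7:122159185-122159484, plus strand: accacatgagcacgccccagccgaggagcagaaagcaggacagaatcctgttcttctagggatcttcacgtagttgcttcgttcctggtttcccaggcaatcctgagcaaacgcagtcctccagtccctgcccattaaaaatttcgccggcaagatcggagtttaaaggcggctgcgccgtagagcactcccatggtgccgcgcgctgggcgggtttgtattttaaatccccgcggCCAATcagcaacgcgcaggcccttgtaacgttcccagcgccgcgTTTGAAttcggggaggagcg
Racgap1 promoter, chr15:99651607-99651906, minus strand: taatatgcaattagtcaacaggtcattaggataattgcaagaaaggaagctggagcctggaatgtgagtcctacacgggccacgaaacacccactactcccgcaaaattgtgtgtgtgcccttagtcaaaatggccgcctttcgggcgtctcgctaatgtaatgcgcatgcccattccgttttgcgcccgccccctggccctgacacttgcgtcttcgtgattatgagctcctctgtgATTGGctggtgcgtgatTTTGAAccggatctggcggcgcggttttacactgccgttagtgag
Hist1h3e promoter, chr13:23562336-23562635, minus strand: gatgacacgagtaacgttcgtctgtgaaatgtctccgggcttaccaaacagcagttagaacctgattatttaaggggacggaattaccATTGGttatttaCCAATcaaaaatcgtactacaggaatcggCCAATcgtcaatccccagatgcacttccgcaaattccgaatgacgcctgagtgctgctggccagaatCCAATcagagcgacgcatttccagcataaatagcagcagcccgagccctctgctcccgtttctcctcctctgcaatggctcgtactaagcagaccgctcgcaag
Hist1h2bb promoter, chr13:23746484-23746783, plus strand: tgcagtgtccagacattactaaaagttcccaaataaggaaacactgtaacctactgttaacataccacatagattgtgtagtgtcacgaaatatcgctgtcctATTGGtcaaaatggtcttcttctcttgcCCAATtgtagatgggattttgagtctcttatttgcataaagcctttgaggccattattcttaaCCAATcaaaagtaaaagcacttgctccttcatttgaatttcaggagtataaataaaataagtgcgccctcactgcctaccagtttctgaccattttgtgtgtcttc
In Cdk1 the search found 3 CCAAT boxes and 2 CHR cores, and in Ccnb2 also 3 and 2, with the last CHR core of Cdk1 15 bases before the start and that of Ccnb2 5 bases after it. Hist1h3e held 4 CCAAT boxes and Hist1h2bb 3.

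Genes of antioxidant and electrophile defence stood higher in KO with IL-4. NRF2 is the transcription factor that turns on glutathione synthesis and conjugation, thioredoxin recycling and quinone reduction under oxidative stress. Of 24 compared genes of a 49-gene list, 10 rose and none fell, with a median of 0.87 against -0.02 over all clusters. Of the 10, 5 were named only through the genotype table and so were already 2-fold apart, and that median rests in part on this choice. In all 10 the KO IL-4 array was the highest of the 4, as in 75.7% of all clusters that rose. The 14 members under 2-fold had a median of 0.39, with 10 above 0. Untreated, the 10 that rose had a median of 0.16, with 7 above 0. Of all 24, 16 lay above 0 in untreated KO, none was at least 2-fold higher and 4 were at least 2-fold lower. Members named only through the IL-4 response of WT share the WT untreated array with this difference. Of all such clusters that were higher with IL-4 in WT, 74.4% lay above 0 untreated, so the 16 cannot show a lean of the list.

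Both subunits of the rate-limiting enzyme of glutathione synthesis rose. The modifier Gclm had 16.47 in KO and 14.75 in WT with IL-4, and 13.39 in KO and 12.54 in WT untreated, and the catalytic Gclc had 14.74 in KO and 13.23 in WT with IL-4, and 12.79 in KO and 11.94 in WT untreated. KO was above WT under both treatments, by 0.84 and 0.85 without IL-4. The KO IL-4 value of Gclm exceeds a 16-bit scanner count, so the size of its rise is uncertain. Slc7a11, the cystine importer that feeds this pathway, had 13.83 in KO and 12.26 in WT with IL-4, but 10.93 in KO and 12.39 in WT untreated, and so turned direction.

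The glutathione transferases Gsta4 and Gsta2 rose, while Gsta3 (0.61) and Gsto1 (-0.28) stayed under 2-fold. Gsta4, which clears lipid peroxidation aldehydes, had 15.02 in KO and 13.06 in WT with IL-4, and 13.10 in KO and 13.19 in WT untreated. Gsta2 rose by 1.60, with an untreated difference of 0.17. The thioredoxin system followed with Srxn1, which restores oxidised peroxiredoxins (1.69), and Txnrd1, thioredoxin reductase (1.20), and quinone and haem metabolism with Nqo1 and Hmox1. Nqo1 had 12.70 in KO and 11.38 in WT with IL-4, and 8.32 in KO and 8.17 in WT untreated. Hmox1 had 17.36 in KO and 16.29 in WT with IL-4, and 16.84 in KO and 17.21 in WT untreated; values over 16 exceed a 16-bit scanner count, so its size is uncertain. The carbonyl reductase Cbr3 rose by 1.41 and was dim. Among members under 2-fold, the pentose phosphate enzymes Taldo1 and Pgd were at 0.96 and 0.68, the autophagy receptor Sqstm1 at 0.87 and the ferritin chains Fth1 and Ftl1 at 0.30 and 0.28. The core of the antioxidant response element, TGACNNNGC, was in 2 of the 7 promoters available for the rising genes. It was in 30.2% of the 43 promoters of the whole list, changed or not, and in 12.5% of all promoters.

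Enzymes of aldehyde and alcohol oxidation had larger rises. Aldh3a1, an aldehyde dehydrogenase, had 14.91 in KO and 12.03 in WT with IL-4, and 7.96 in KO and 5.99 in WT untreated. Adh7, an alcohol dehydrogenase that can oxidise retinol, had 11.48 in KO and 8.90 in WT with IL-4, and 8.45 in KO and 7.80 in WT untreated. Abcc3, an export pump for conjugates, had 13.91 in KO and 11.95 in WT with IL-4, and 9.90 in KO and 9.44 in WT untreated. The list of these enzymes was not uniform, since of 18 compared members 3 rose and 1, Akr1c18 (-1.66, dim), fell, and 13 of the other 14 lay below 0. The carboxylesterase 2 family, hydrolases of esters and lipids that were grouped by symbol after the values were seen, fell in 4 of 5 named members, Ces2f (-1.87), Ces2e (-1.84), Ces2c (-1.70) and Ces2b (-1.03), all but Ces2f dim.

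**Figure D4:**
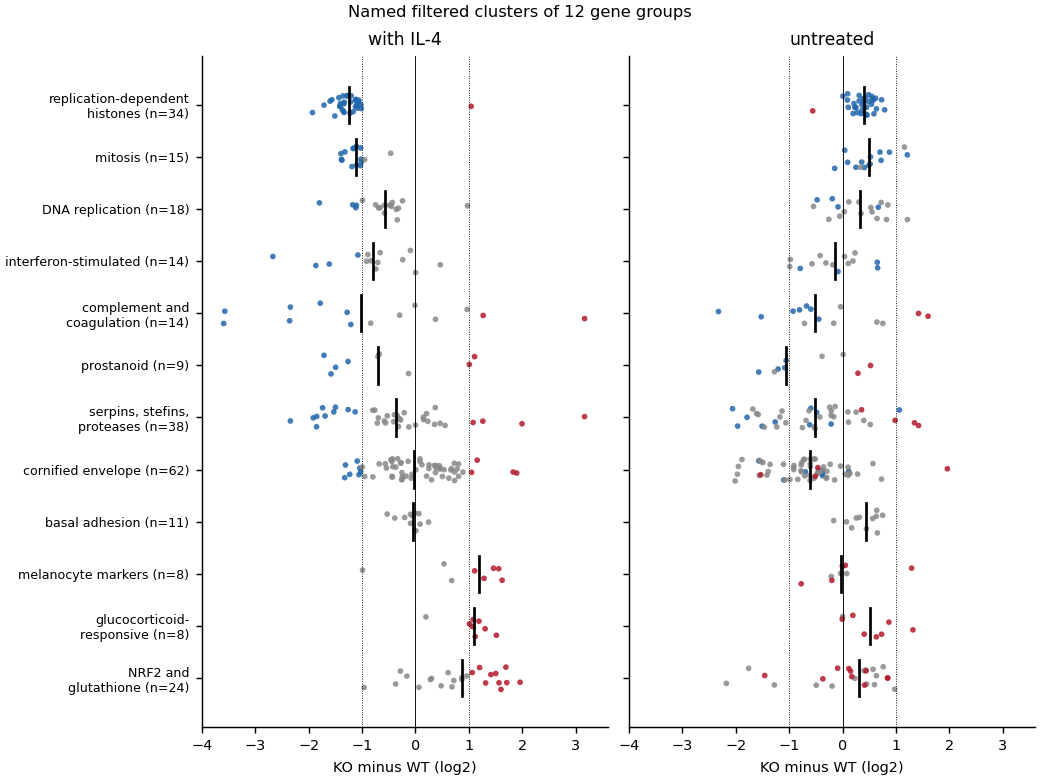
KO minus WT log2 difference (x axis) of the named compared clusters of 12 gene groups with IL-4 (left) and untreated (right); points are clusters, coloured red or blue in both panels where they rose or fell at least 2-fold with IL-4, and black bars are medians. Histone points, all but Hist1h1c, and mitosis points lie left of 0 with IL-4 and almost all right of 0 untreated, and the basal adhesion points stay between -1 and 1.

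Among the largest rises were a pair of keratins of simple epithelia, Krt8 and Krt18, which join into the filaments of single-layered epithelia and also mark Merkel cells. Krt8 had 14.76 in KO and 9.80 in WT with IL-4, and 9.71 in KO and 8.03 in WT untreated. Krt18 had 13.63 in KO and 9.26 in WT with IL-4, and 7.23 in KO and 5.53 in WT untreated. KO was higher in both pairs, by 4.95 and 4.38 with IL-4 and by 1.68 and 1.70 without. Krt7, another keratin of this class, had 9.93 in KO and 12.02 in WT with IL-4, and 8.88 in KO and 9.71 in WT untreated, and was lower in both pairs. The wound keratin Krt16 and Krt80 were at -0.38 and -0.16. No other Merkel marker of the 6 examined had a symbol here.

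Matrix, cytoskeletal and TGF-β-related genes moved in both directions. Of 25 compared members of the matrix list, 4 rose and 5 fell. Lox, which cross-links collagen and elastin, had 15.77 in KO and 12.14 in WT with IL-4, and 8.95 in KO and 7.04 in WT untreated. Angptl7, a secreted angiopoietin-like protein, had 12.32 in KO and 7.76 in WT with IL-4, and 11.76 in KO and 9.93 in WT untreated. Both were higher in KO in both pairs. The other rises of the list were the matrix protein gene Sparc (1.71) and, dim, Id2 (1.17).

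On the falling side stood the activin axis. Inhba, the activin A subunit, had 12.95 in KO and 15.70 in WT with IL-4, and 11.98 in KO and 13.02 in WT untreated. Its secreted antagonist Fst, follistatin, had 8.62 in KO and 11.12 in WT with IL-4, and 10.98 in KO and 11.38 in WT untreated. The basement membrane proteoglycan Hspg2 (-1.35) fell as well, and Tgfb2 (-1.08) and Col12a1 (-1.17) were dim falls. Col12a1, with 3.52 in KO and 4.69 in WT, lay under 5.33 in both IL-4 arrays and was compared only through the untreated arrays. Of 21 compared actin, muscle and mechanosensitive genes, 5 rose and 1 fell. Besides Krt8 the rises were the muscle ankyrin repeat protein Ankrd1, with 10.65 in KO and 7.70 in WT with IL-4 and 6.29 in KO and 5.70 in WT untreated, skeletal actin Acta1 (1.96), vimentin Vim (1.98) and the focal adhesion protein Tns3 (1.32); Myl9 was a dim fall at -2.18. Ctgf and Cyr61, targets of YAP and serum response factor, were at 0.48 and -0.29, and Acta2 was at 0.98.

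A set of genes that glucocorticoid receptor induces in many cell types was higher in KO. It was put together after the values were seen, from 8 named compared genes of which 7 rose, so its count carries no weight of its own. Fkbp5, a chaperone of the receptor, had 13.48 in KO and 12.36 in WT with IL-4, and 13.04 in KO and 12.31 in WT untreated. Tsc22d3, also known as GILZ, had 12.39 in KO and 11.20 in WT with IL-4, and 11.63 in KO and 11.22 in WT untreated. Zbtb16 (1.08 with IL-4 and 1.32 untreated), Sgk1 (1.07 and 0.87), Zfp36l2 (1.01 and 0.63), Klf9 (1.52 and 0.19) and Txnip (1.31 and -0.01) made up the rest of those that rose, Dusp1 was at 0.20, and 6 of the 7 lay above 0 in the untreated pair.

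Cytokine genes were divided. Of 17 compared, 2 fell and 2 rose, with a median of 0.10. Tnf had 9.31 in KO and 11.56 in WT with IL-4, and 7.41 in KO and 6.95 in WT untreated. The interleukin-1 receptor antagonist Il1rn had 8.64 in KO and 10.09 in WT with IL-4, and 12.61 in KO and 13.46 in WT untreated. Il24, a member of the IL-10 family, went the other way with 13.35 in KO and 11.97 in WT with IL-4, and 5.92 in KO and 5.28 in WT untreated. Lif rose by 1.35, and the other 13 compared cytokines, among them Il1a (-0.65), Il33 (0.37) and Csf1 (0.36), stayed under 2-fold.

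Of 9 compared chemokine genes 3 fell: the monocyte attractant Ccl2 had 9.46 in KO and 10.72 in WT with IL-4, and 8.36 in KO and 7.67 in WT untreated, and Cxcl3 (-1.42) and Ccl20 (-1.10) were dim. Cxcl1 was at -0.57. Of 13 NF-κB targets 3 fell and none rose, and 8 of the other 10 lay below 0 with a median of -0.30. Tnfaip2 had 11.36 in KO and 12.92 in WT with IL-4, and 8.12 in KO and 9.92 in WT untreated, lower in both pairs. Zc3h12a, the RNase that degrades cytokine messages, fell by 1.23 with IL-4 and was 0.59 higher untreated, and Bcl3 was a dim fall. Tlr2, which can sense extracellular HMGB1, had 11.02 in KO and 12.04 in WT with IL-4, and 10.45 in KO and 10.64 in WT untreated. Of 23 compared cytokine receptor and signalling genes 4 rose and 4 fell, with a median of 0.16. The falls were the feedback inhibitors Cish (-1.34) and Socs2 (-1.20), the common γ chain Il2rg (-1.31) and Il22ra1 (5.30 in KO and 6.30 in WT), all but Il2rg dim, and the rises were Tnfrsf26 (1.10) and, dim, Lifr (1.08), Il20ra (1.06) and Il1r2 (1.01). Il20ra (3.78 in KO and 2.72 in WT) and Il1r2 (5.12 in KO and 4.11 in WT) lay under 5.33 in both IL-4 arrays. They were compared only through the untreated arrays. The 4 rises became 2 with a filter on the IL-4 arrays only, and also 2 after cyclic loess. The IL-4 receptor chain Il13ra1 was at 0.25.

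Interferon-induced genes leaned lower in KO with IL-4. Ifitm3, a membrane protein that blocks virus entry, had 10.89 in KO and 13.56 in WT with IL-4, and 12.18 in KO and 11.53 in WT untreated. The related Ifitm2 had 11.26 in KO and 13.13 in WT with IL-4, and 13.22 in KO and 12.56 in WT untreated. Both were lowest in the KO IL-4 array and lay above 0 in the untreated pair. Of 14 compared members 4 fell and none rose, the other falls being the dim Gbp2 (-1.62) and Ifi27 (-1.08), and 8 of the other 10 lay below 0 with a median of -0.68, among them the RNA sensors Ddx58 (-0.92) and Ifih1 (-0.74).

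Complement genes fell with IL-4 and lay below 0 untreated as well. C3, the central complement component, had 7.82 in KO and 10.18 in WT with IL-4, and 5.26 in KO and 6.19 in WT untreated. C1s1, a protease of the classical pathway, had 5.69 in KO and 9.26 in WT with IL-4, and 6.10 in KO and 7.62 in WT untreated. The decay-accelerating factor Cd55 fell by 1.78 and was -0.67 untreated, and C1ra (-1.28) and C1s2 (-1.21) were dim falls. The complement and coagulation list of 14 compared genes held 7 falls and 2 rises. The falls also include Olr1, a scavenger receptor for oxidised lipoprotein, with 5.85 in KO and 9.44 in WT with IL-4 and 5.83 in KO and 8.16 in WT untreated, and the protease inhibitor Serpine2 (-2.34). One of the rises was Clu, a secreted chaperone that blocks the membrane attack complex, with 18.77 in KO and 17.51 in WT with IL-4, and 16.49 in KO and 14.89 in WT untreated. Both IL-4 values and the untreated KO value of Clu exceed a 16-bit scanner count, so its size is uncertain. All 7 members that fell were also below 0 untreated, and Clu was above it.

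Genes of inflammatory cell death, grouped after the values were seen, fell in 5 of 7 compared members. Nlrp10 had 9.05 in KO and 10.42 in WT with IL-4, and 9.37 in KO and 9.87 in WT untreated, and Ripk3, the necroptosis kinase, had 8.89 in KO and 10.12 in WT with IL-4, and 8.20 in KO and 9.03 in WT untreated. Casp1 (-2.54), which matures interleukin-1β, Casp4 (-1.53) and the adaptor Pycard (-1.26) were dim. The other 2, Il18 and Mlkl, lay above 0 with IL-4, between 0.52 and 0.60. All 7 members lay below 0 in the untreated pair, so Il18 and Mlkl differed in sign between the pairs. In the prostanoid list of 9, 4 fell and 2 rose. Ptgs2, the inducible cyclooxygenase, had 12.37 in KO and 14.09 in WT with IL-4, and 12.22 in KO and 13.79 in WT untreated, a like difference in both pairs. The other changes, Hpgds, Pla2g2f and Ltb4r1 downward and Ptgds and Alox12e upward, were dim. Ltb4r1, with 4.03 in KO and 5.29 in WT, lay under 5.33 in both IL-4 arrays and was compared only through the untreated arrays.

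**Figure D5:**
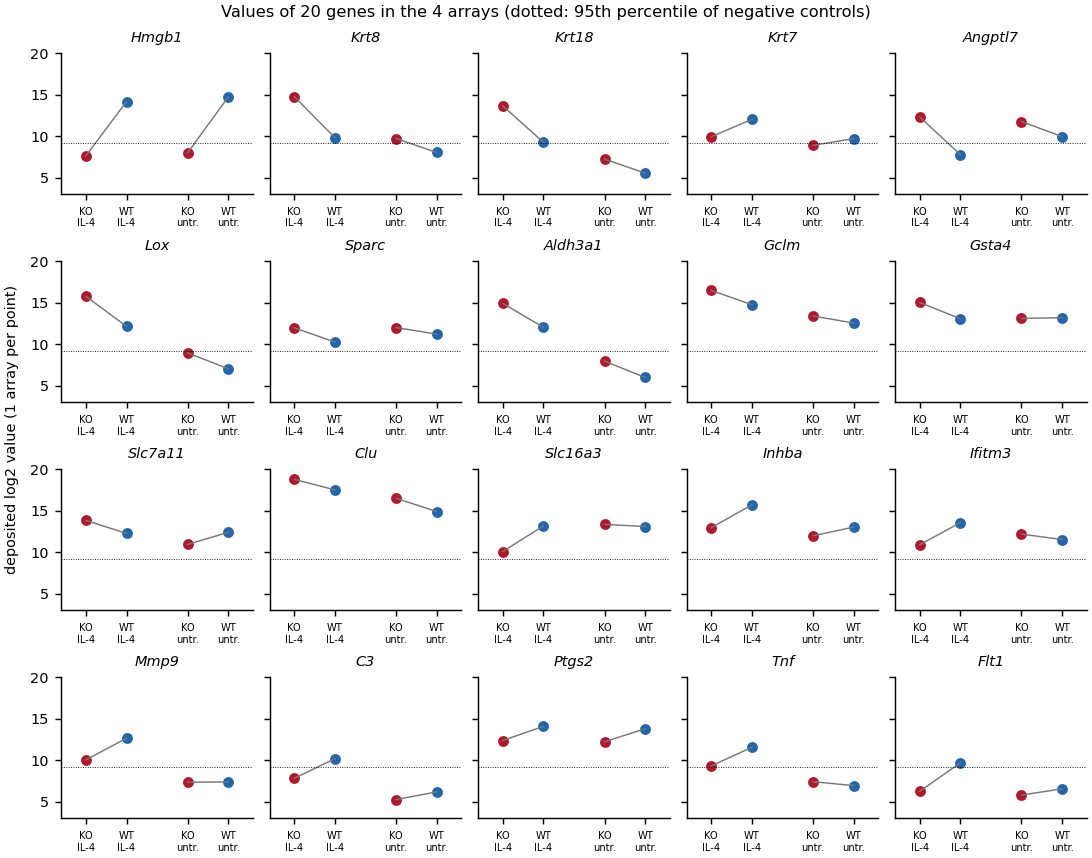
Deposited log2 value (y axis) of 20 genes in each array (x axis: KO IL-4, WT IL-4, KO untreated, WT untreated), with KO in red, WT in blue and a dotted line at 9.21. Each point is 1 array; Krt8, Krt18, Lox and Clu are higher in KO in both pairs, while Slc16a3, Ifitm3, Mmp9 and Tnf are at least 2-fold lower in KO with IL-4 and under 2-fold apart untreated.

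Secreted proteases and their inhibitors held more falls than rises, and most stayed under 2-fold. The gelatinase Mmp9 had 10.04 in KO and 12.65 in WT with IL-4, and 7.36 in KO and 7.39 in WT untreated. The collagenase Mmp13 had 7.12 in KO and 9.75 in WT with IL-4, and 6.71 in KO and 7.83 in WT untreated. Of 12 compared matrix protease genes 4 fell, Adamts4 (-3.15) and Timp3 (-1.56) dim, and 1, Mmp2 (1.02, dim), rose. Among 38 serpins, stefins and epidermal proteases 10 fell and 4 rose. The kallikrein Klk6 had 14.09 in KO and 15.59 in WT with IL-4, and 16.86 in KO and 17.34 in WT untreated, and Klk10 had 11.58 in KO and 12.84 in WT with IL-4, and 11.53 in KO and 12.79 in WT untreated. Klk5 (-1.74) and the stefin A genes Stfa2 (-1.85), Stfa3 (-1.69) and Stfa2l1 (-1.53), cysteine protease inhibitors in tandem copies, were dim falls. Serpinb9b, an intracellular serpin, rose, with 9.96 in KO and 7.96 in WT with IL-4, and 6.51 in KO and 6.15 in WT untreated.

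Growth factor signalling and transport held some of the largest single falls. Flt1, a receptor for VEGF, had 6.25 in KO and 9.69 in WT with IL-4, and 5.81 in KO and 6.55 in WT untreated. Rgs16, which shortens G protein signals, had 6.55 in KO and 9.56 in WT with IL-4, and 5.13 in KO and 4.76 in WT untreated. Slc16a3, the lactate exporter of glycolytic cells, had 10.08 in KO and 13.16 in WT with IL-4, and 13.36 in KO and 13.09 in WT untreated. Its KO IL-4 value alone was low. Of 19 compared genes of glycolysis and hypoxia 3 fell, Slc16a3 among them, and none rose. This share of falls is near that of all named clusters (423 of 2568), so it is no result about the list. The other 16, which included Tpi1 (-0.48), Hk1 (0.79) and Vegfa (0.86), stayed under 2-fold. Of 38 solute carriers and channels 9 fell and 3 rose, the rises being Slc7a11, the amino acid exchanger Slc7a8 (1.49) and the zinc importer Slc39a4 (1.10). Nrg1, a ligand of ErbB receptors, fell by 1.45 and the binding protein Igfbp3 by 1.28, while the EGF family ligand Epgn rose by 1.34. Wnt and Notch components fell in 5 of 9 compared genes and rose in none: the receptors Fzd2, with 8.42 in KO and 10.08 in WT with IL-4 and 9.72 in KO and 9.87 in WT untreated, and Fzd7 (-1.21), the secreted Dkk3 (-1.23), and, dim, Notch1 (-1.81) and its target Nrarp (-1.63).

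Differentiation genes did not move as a block. Of 62 compared cornified envelope and suprabasal genes 4 rose and 7 fell, with a median of -0.03. Hrnr, a filaggrin-like protein, had 11.52 in KO and 9.69 in WT with IL-4, and 16.09 in KO and 16.60 in WT untreated, and Rptn, repetin, had 13.95 in KO and 12.79 in WT with IL-4, and 16.09 in KO and 16.55 in WT untreated. Krt10 (1.90) and Lor (1.05) were dim rises. Sprr1b, a small proline-rich envelope protein, had 12.11 in KO and 13.43 in WT with IL-4, and 16.44 in KO and 16.81 in WT untreated, and the transcription factors Klf4 (-1.09) and Grhl3 (-1.06), which direct terminal differentiation, fell. None of 21 late cornified envelope genes passed 2-fold with IL-4. Untreated, all 21 lay below 0 in KO, 10 of them at least 2-fold lower, as did 53 of the 62, 16 of them at least 2-fold lower, although most were named through the IL-4 response of WT, which shares the WT untreated array. None of 11 basal adhesion genes passed 2-fold with IL-4, the lowest being Itga2 at -0.53, and the laminin and integrin genes Lama3, Itgb4 and Itga3 had values of 17.74, 16.49 and 17.00 in KO and 17.74, 16.59 and 16.94 in WT with IL-4. The stress and amino acid response list, in which 16 of 18 compared genes were at least 2-fold lower in untreated KO, held 1 such fall with IL-4, Slc7a3 (-1.21). Its members were named mostly through the IL-4 response of WT, which shares the WT untreated array with that difference.

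Marker genes of other cells were read where a symbol existed. None of 8 defining keratinocyte markers and none of 7 myeloid markers was named by the tables, so the cell type label was checked only through the basal adhesion genes above and Krt16, which had 15.08 in KO and 15.46 in WT with IL-4. Of 7 melanocyte markers 4 were named, and Tyrp1, with 13.46 in KO and 11.83 in WT with IL-4 and 12.61 in KO and 12.55 in WT untreated, and Dct, with 10.07 in KO and 8.51 in WT with IL-4 and 10.34 in KO and 10.54 in WT untreated, rose. Their summed level, on the log2 scale, was 13.64 in KO and 12.07 in WT with IL-4, and 13.12 in KO and 13.11 in WT untreated, so the WT IL-4 array was the low one. On a wider list of 17 melanocyte genes, 5 of 8 compared rose and none fell, with a median of 1.20 with IL-4 and -0.02 untreated; Kit (1.46), Ednrb (1.28) and Slc24a5 (1.11) were the dim rises. The 2 named of 10 fibroblast markers, Vim and Sparc, summed to 12.76 in KO and 10.94 in WT with IL-4, and 12.73 in KO and 11.81 in WT untreated. The collagen genes that define fibroblasts had no symbol here. The part of either cell type in the results was not tested.

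Genes near the altered locus were read apart. Within 2 Mb of Hmgb1 on chromosome 5, 5 other compared clusters had a single symbol. Flt1, 1.49 Mb away, fell, and Ubl3, Medag, Hsph1 and Fry stayed under 2-fold with IL-4, between -0.70 and 0.56. On chromosome 5 as a whole 2.49% of clusters fell and 1.66% rose.

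Across the 2 genotype pairs, which share no array, 127 of the 185 clusters that rose with IL-4 (68.6%) and 266 of the 442 that fell (60.2%) had the same direction untreated, where 49.5% of all compared clusters lay above 0. Of these, 28 and 79 passed 2-fold in that direction, and 4 and 7 passed it in the other. The 98 named clusters that changed the same way in both pairs include Hmgb1, Krt8, Krt18, Lox, Aldh3a1, Angptl7 and Clu, and on the lower side Olr1, C1s1, Inhba, Mmp13, Tnfaip2, Ptgs2 and Klk10. For Krt18, Lox, Aldh3a1, Olr1, C1s1 and Mmp13 both untreated values lay under 9.21, so their untreated differences are uncertain. The label dim covers only the IL-4 values. Dishes of one genotype may share their donor mice, so a genotype difference seen in both pairs and a difference between animals cannot be told apart.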

How the data were processed

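The deposited matrix holds log2 values of 22206 transcript clusters plus 6640 control rows, made by RMA in Affymetrix Expression Console 1.4 per the submitters' processing notes; the design text names another program. RMA makes array distributions alike, so a global change in RNA is removed (array medians over clusters were 5.10 to 5.15). Values above 16, the limit of a 16-bit count, leave a further transformation possible, which the sources used here do not describe. The authors also deposited 2 tables with log2 averages and a signed fold change, a score that runs WT over KO in the genotype table; they were used for gene symbols, and the genotype table matched the arrays within 0.068. Per the file headers, annotation release na36 (mm10) was used.

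Log2 differences, KO minus WT, were computed with Python 3.11.15 and pandas 2.3.3, without any p-value, since each group has 1 array. Symbols were taken only where a table pairs 1 with a cluster (3059 clusters), and 3001 matched RefSeq of GRCm38.p6. Named genes are Hmgb1, the 20 largest rises and falls with an IL-4 value of at least 9.21, and members of 41 gene lists. The members and lists were chosen with earlier results of these data known, and 11 families were added after the values were seen. Alternatives were other filters, thresholds of 1.5-fold and 3-fold, cyclic loess (limma 3.58.1), a median of 0, and the authors' table values. The scripts were tested on simulated data. A few named members are not reported here.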

Additional observations from a re-analysis of the deposited data

Results flagged for a closer look

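Among named clusters, 11 passed 2-fold in opposite directions in the IL-4 and the untreated pair. This is an observed turn of sign between single arrays, and the difference between the pairs was not tested. Lower in KO with IL-4 and higher untreated were the serine protease Tmprss11b (-1.85 and 1.07), the DNA polymerase subunit Pold1 (-1.23 and 1.13), the cytokine signalling inhibitor Socs2 (-1.20 and 1.32), Cdk1 (-1.17 and 1.21), S100pbp (-1.12 and 1.12), the potassium channel Kcnn4 (-1.10 and 1.09) and Cmah (-1.04 and 1.16). Higher in KO with IL-4 and lower untreated were loricrin, Lor (1.05 and -1.53), Rassf6 (1.12 and -1.85), the cystine importer Slc7a11 (1.57 and -1.46) and Ttc9 (1.78 and -1.43). Of the 11, 8 were dim with IL-4, the exceptions being Tmprss11b, Slc7a11 and Ttc9. Pold1, S100pbp, Cmah and Rassf6 were chosen after their values were seen. With 1 array per group no search for an outlying sample was possible.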

How the results depend on the processing

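No paired analysis was possible because each group has 1 array and the labels carry no replicate numbers, and for the same reason no array could be left out. The 185 rises and 442 falls depended on the filter and the threshold. Rises numbered 381 without the level filter, 75 with a stricter filter, 865 at 1.5-fold and 37 at 3-fold, and falls numbered 200, 1372 and 96 under the last 3. The other settings (filter on the IL-4 arrays only, cyclic loess, median set to 0, authors' table values) gave 177 to 199 rises and 411 to 441 falls, and falls without the level filter were 518. The share with the same direction untreated, 62.68%, was 81.2% at 3-fold. The 10 NRF2 rises became 16 at 1.5-fold and 4 at 3-fold, the 19 falls of the histone list became 1 at 3-fold, and the 13 mitosis falls became 0 at 3-fold. Hmgb1 stood at -6.55 after loess. For 26 other counts over 21 lists, 136 of 182 values stayed within 1.5 times and 46 did not. The 39 largest named changes kept their direction and size under loess and with the authors' table values, moving by at most 0.04. The authors' values come from the same arrays, so their match was fixed in advance. Neither setting can show how a replicate array would read. Differences under 9.21 are limited by signal over background.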
